A study of Mus musculus with 24 samples.

Results

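The globin genes encode the protein chains of hemoglobin. The members described here were chosen by name: the adult beta globins Hbb-bs and Hbb-bt, the adult alpha globins Hba-a1 and Hba-a2, the embryonic beta-like globins Hbb-y and Hbb-bh1, and Ahsp, the alpha hemoglobin stabilizing protein. That is 7 genes, of which 6 were matched to rows of the 55414 gene identifiers in the count files, and Ahsp was not analysed here. Of the 6, the 4 adult genes passed the filter on low counts that left 19616 genes for testing, and the embryonic pair did not. The members were chosen with earlier results of these data known.

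The libraries were made from hematopoietic stem and progenitor cells of mouse pups 21 days old. These were LSK cells, which lack lineage markers and carry Sca-1 and Kit, sorted from bone marrow after a lineage depletion step. The C57BL/6J dams ate either regular chow (2018SX), the control, or a Western diet (TD.88137) intended to make them obese, from 4 weeks before mating until the end of lactation. There were 4 groups of 6 libraries: female pups of control dams, female pups of Western-diet dams, male pups of control dams and male pups of Western-diet dams. Each group had 2 libraries in each of 3 labelled batches. All pups were of unmodified genotype as far as the labels say, and the sires are not described. The labels do not say which pups shared a litter or whether a library pooled pups, so p-values measure only the spread between these libraries.

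Adult hemoglobin is a tetramer of a pair of alpha and a pair of beta chains, each holding a heme group that carries oxygen. Red cell precursors make globin RNA in very large amounts as they mature, under the factors Gata1 and Klf1, and the embryonic chains are replaced by adult ones before birth. Stem and progenitor cells lie upstream of that step, and the lineage antibodies used to purify them usually include one against red cell precursors.

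The promoters of the 4 adult genes and of Hbb-y are given here because the adult genes moved together across the libraries and Hbb-y was almost silent in them. Each line holds the 150 bases before the annotated start, 5′ to 3′ on the gene's own strand, from RefSeq on GRCm38.p6, while the counts were made on GRCm39. A promoter was matched for 5 of the 6 genes. Hbb-bs lies at chr7:103827929-103828078 and Hbb-bt at chr7:103813924-103814073, both on the minus strand. Hba-a1 lies at chr11:32283522-32283671 and Hba-a2 at chr11:32296342-32296491, both on the plus strand, and Hbb-y at chr7:103853208-103853357 on the minus strand. Capitals mark matches on either strand to CACCC (the box bound by Klf1-type factors), to CCAAT (the box bound by NF-Y), or to ATAAA, similar to the core promoter box that helps position the start of transcription. Matches to the similar sequence ATATAA, searched for after these promoters were seen, are in capitals too.
Hbb-bs: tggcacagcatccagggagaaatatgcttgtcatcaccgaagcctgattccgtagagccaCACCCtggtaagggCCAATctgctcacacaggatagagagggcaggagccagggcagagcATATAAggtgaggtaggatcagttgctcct
Hbb-bt: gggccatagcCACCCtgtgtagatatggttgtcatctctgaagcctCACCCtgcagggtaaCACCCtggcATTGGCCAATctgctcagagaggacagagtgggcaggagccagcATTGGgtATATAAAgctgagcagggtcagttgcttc
Hba-a1: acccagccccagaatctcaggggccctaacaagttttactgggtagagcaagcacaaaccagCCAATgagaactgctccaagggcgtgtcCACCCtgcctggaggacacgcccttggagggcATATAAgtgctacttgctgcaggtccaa
Hba-a2: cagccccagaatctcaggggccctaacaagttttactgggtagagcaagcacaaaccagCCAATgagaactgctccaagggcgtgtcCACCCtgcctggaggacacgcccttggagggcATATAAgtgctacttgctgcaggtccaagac
Hbb-y: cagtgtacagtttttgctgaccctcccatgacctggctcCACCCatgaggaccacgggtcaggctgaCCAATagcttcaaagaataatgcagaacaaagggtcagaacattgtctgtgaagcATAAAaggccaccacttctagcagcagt

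All 5 windows held CACCC and CCAAT. Over the 32851 promoter windows of this length in the table, 37.4% held CACCC and 24.5% held CCAAT. In the 4 adult genes ATATAA began 28 to 31 bases before the start, a sequence present in 5.35% of all windows. In Hbb-bt it overlapped ATAAA, which alone began 28 bases before the start of Hbb-y and was present in 24.1% of windows. The sequence AGATAA, of the kind bound by Gata factors and present in 5.65% of windows, was searched on both strands and matched none of the 5. Set 3 bases apart, the windows of Hba-a1 and Hba-a2 were identical over all 147 shared bases. Those of Hbb-bs and Hbb-bt shared 71.1% of 149 aligned bases.

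The transcripts of each pair are also alike, which bears on every value that separates one copy from the other. In the GENCODE M21 transcripts, Hba-a1 and Hba-a2 differed at 1 of 429 coding bases, stop codon included, and Hbb-bs and Hbb-bt at 1 of 444. Of the 50-base windows along Hba-a1, 67.5% also occurred in Hba-a2, and of those along Hbb-bs, 65.8% occurred in Hbb-bt. No such window was shared between Hbb-bs and Hbb-y or Hbb-bh1. Reads that align equally well to both copies stand in a closing line of each file and not in a gene, so the counts of each copy rest on the reads that reached its distinct part. Those closing lines for reads aligned to several places held 4.21 to 7.16% of each file's total.

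The libraries held 38057263 to 51581968 counts in genes. Between 31.04 and 39.3% of a file's total stood in its closing lines, which name no gene. Reads that fell in no annotated feature were 7.07 to 16.4% of the total. The biological coefficient of variation was 0.261. All 10 LSK markers had counts in every library, with Kit at 267 to 883 CPM (counts scaled to a common library size after TMM correction) and Ly6a, which encodes Sca-1, at 2.14 to 39.9 CPM. All 11 matched erythroid markers, the 4 adult globins among them, also had counts in every library, so a count alone does not bear out the sort label. Klf1, another of them, had group means of 202 to 603 CPM, against 8.49 to 17.1 CPM for Ly6a. The closest pair of libraries differed by a chi-square of 14.4 per degree of freedom, so none was a repeat of another. In bulk RNA, fewer cells of a type and less RNA per cell cannot be told apart.

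The adult globins were present in all 24 libraries, at very uneven levels. Together they made up 0.0516 to 0.793% of gene counts, with a median of 0.183% in female control, 0.142% in female Western-diet, 0.449% in male control and 0.179% in male Western-diet pups. Male control pups thus had the highest median, and the other groups lay close together. Fewer than 1 count in 100 was globin in any library, although Hbb-bs alone ranged over 17.96-fold.

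Hbb-bs encodes an adult beta chain. In female control pups its lowest, median and highest levels were 202, 803 and 3622 CPM, and in female Western-diet pups 220, 694 and 1158 CPM. In male control pups they were 851, 2050 and 3269 CPM, and in male Western-diet pups 263, 799 and 1297 CPM. In males, 4 of the 6 controls lay above every Western-diet library, while the female control libraries spanned the whole range of the series.

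Hbb-bt is the other adult beta globin gene. Its lowest, median and highest levels were 67.0, 184 and 719 CPM in female control and 33.95, 157 and 231 CPM in female Western-diet pups. In male pups they were 211, 424 and 721 CPM with control dams and 77.6, 168 and 293 CPM with Western-diet dams. The ranges overlapped in both sexes, and in males 4 of the 6 Western-diet libraries lay below every control.

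Hba-a1 encodes an adult alpha chain. It ran from 245 through a median of 712 to 2537 CPM in female control and from 189 through 425 to 808 CPM in female Western-diet pups. The male controls ran from 757 through 1376 to 1894 CPM and the male Western-diet libraries from 258 through 566 to 843 CPM. Only 1 male control lay within the Western-diet range, so this member came closest to separate groups in males.

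Hba-a2, the second alpha gene, had lowest, median and highest levels of 48.7, 214 and 1087 CPM in female control and 73.6, 169 and 279 CPM in female Western-diet pups. The corresponding levels in males were 186, 511 and 764 CPM with control dams and 49.8, 180 and 316 CPM with Western-diet dams. Its lowest value in the series was in a female control, not in a Western-diet pup.

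**Figure D1:**
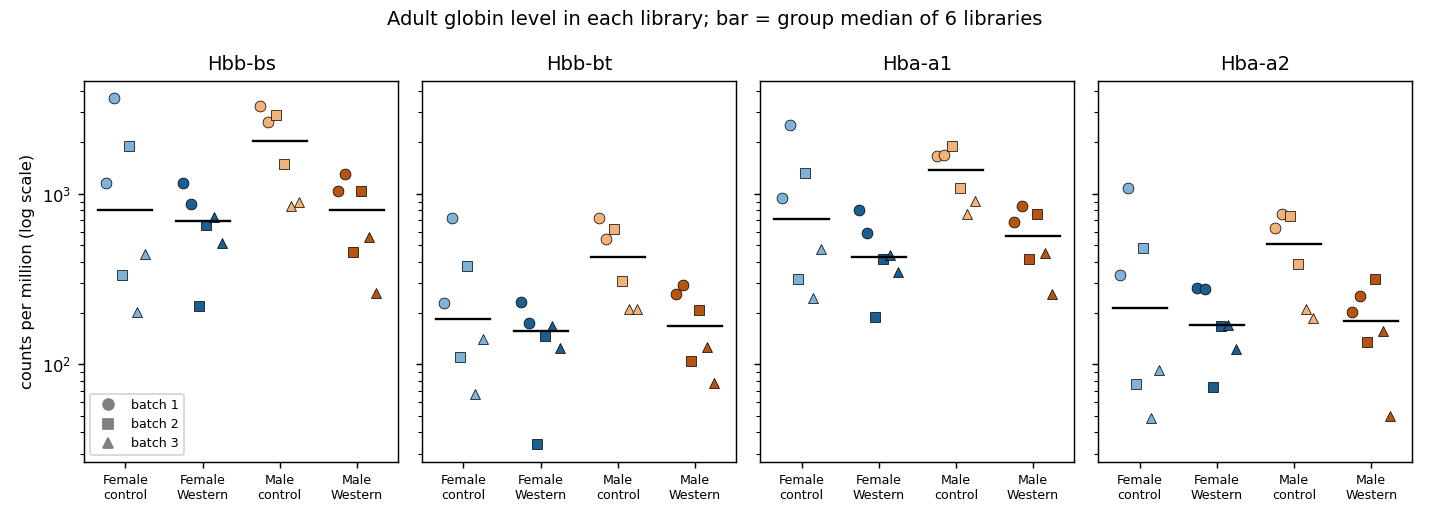
Level of each adult globin (CPM, log axis) in each of the 24 libraries, by group, with marker shape for batch and a bar at the group median of 6 libraries. The male control group has the highest median, with Hbb-bs from 851 to 3269 CPM, while the highest single library for Hbb-bs is a female control at 3622 CPM, and batch 3 (triangles) lies low in both control groups.

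Per kilobase of annotated exon, Hbb-bs had the highest mean level over the 24 libraries, 1547 ± 1277 CPM per kb (SD, n = 24). Hba-a1 followed at 1027 ± 737, Hba-a2 at 452 ± 395 and Hbb-bt at 368 ± 282 CPM per kb. Over coding length the order was the same, at 2694, 1958, 708 and 586 CPM per kb. Per kilobase of exon, Hbb-bs lay above Hba-a1 in 22 of 24 libraries, Hba-a1 above Hba-a2 in 24 and Hba-a2 above Hbb-bt in 16, and the copies' shared sequence limits what each level means. By mean level over groups, Hbb-bs was highest in male control pups at 2004 ± 1059 CPM (SD, n = 6), then female control at 1279 ± 1316, male Western-diet at 776 ± 405 and female Western-diet at 693 ± 318. The 2 highest female controls held 1914 and 3622 CPM, and neighbouring groups in this order overlapped.

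The spread between libraries of one group was wide for all 4 genes. After group and batch means were removed, the SD of log2 CPM was 0.82 for Hbb-bs, 0.76 for Hbb-bt, 0.66 for Hba-a1 and 0.86 for Hba-a2. The median over all tested genes was 0.37, and these 4 values exceeded those of 86.0 to 96.3% of genes.

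In male pups, all 4 adult globins were measured lower with the Western diet, by similar amounts, but none passed the test across all genes. The fitted log2 fold change, Western diet against control, was -1.34 ± 0.44 (SE) for Hbb-bs, -1.29 ± 0.40 for Hbb-bt, -1.24 ± 0.35 for Hba-a1 and -1.28 ± 0.46 for Hba-a2, or 2.36- to 2.53-fold lower. Their adjusted p-values by edgeR's quasi-likelihood test were 0.357, 0.329, 0.278 and 0.434, with 6 libraries a group. That test called 0 of the 4 members and 0.0102% of all genes in males. At an unadjusted p under 0.05 it took in all 4 members, the p-values lying between 0.00171 and 0.0112, and 8.45% of all genes. DESeq2 called 1 of the 4, Hba-a1, with an adjusted p of 0.0348. Limma-voom with quality weights called all 4, with adjusted p-values from 0.0283 to 0.0490. Of the 19616 genes, DESeq2 called 99 and limma-voom 132 in males. The 4 members rose and fell together over the libraries and are not independent observations. The call in males therefore differed between tools, while the direction did not. All 6 Western-diet males lay below the control mean for each gene, and 3 or 4 of them lay below every control.

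In female pups, the differences were smaller and none passed. The log2 fold changes were -0.53 ± 0.44 for Hbb-bs, -0.66 ± 0.40 for Hbb-bt, -0.89 ± 0.35 for Hba-a1 and -0.54 ± 0.47 for Hba-a2, or 1.44- to 1.85-fold lower. Adjusted p-values by edgeR's quasi-likelihood test were 0.543, 0.360, 0.144 and 0.559. It called 0 of 4 members, as did DESeq2 and limma-voom, against 5.42% of all genes. Hba-a1 alone had an unadjusted p under 0.05, against 21.3% of genes. All 6 Western-diet females lay below the control mean for each gene, but so did 4 of the 6 controls. Below the control median lay 4 Western-diet females for Hbb-bs and Hba-a2 and 5 for Hbb-bt and Hba-a1, and at most 1 lay below every control. With so wide a spread, the normal-approximation 95% interval for Hbb-bs ran from -1.40 to 0.34 on the log2 scale.

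Averaged over both sexes, all 4 members were measured lower with the maternal Western diet, and 2 were called, Hba-a1 and Hbb-bt. Of all genes, 5.7% were called in that comparison in either direction and 3.51% were called lower. Hba-a1 fell by 1.06 ± 0.25 on the log2 scale (SE, edgeR adjusted p = 0.0119), or 2.09-fold. Hbb-bt fell by 0.98 ± 0.28 (edgeR adjusted p = 0.0434), or 1.97-fold. For Hbb-bs the log2 fold change was -0.93 ± 0.31 and for Hba-a2 -0.91 ± 0.33, with edgeR adjusted p-values of 0.0822 and 0.112. The sizes differed little between the called and the uncalled members. The call of Hbb-bt was marginal, since leaving out any 1 of 15 libraries ended it, with adjusted p-values from 0.0533 to 0.0744, while that of Hba-a1 held without each single library. Hba-a1 was not called with no batch term (edgeR adjusted p = 0.0506), with batch 1 left out (0.0978), with batch 3 left out (0.0526) or in each batch alone (0.179 to 0.482).

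The diet difference was not shown to differ between the sexes. On the log2 scale, the male difference minus the female one was -0.81 ± 0.61 for Hbb-bs, -0.63 ± 0.56 for Hbb-bt, -0.36 ± 0.49 for Hba-a1 and -0.74 ± 0.65 for Hba-a2. By edgeR the adjusted p-values were 0.704 to 0.845. It called 0 of 4 members and 0% of genes, and 0 members had an unadjusted p under 0.05, against 8.32% of genes. DESeq2 and limma-voom also called 0 members.

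Between the sexes, male control pups had higher fitted levels than female control pups, by 0.63 to 0.83 on the log2 scale, with edgeR adjusted p-values of 0.407 to 0.529. That comparison called 0 of 4 members and 0.112% of genes. In Western-diet pups the log2 differences between males and females were -0.04 to 0.27, with adjusted p-values of 0.869 to 0.998, and 0 of 4 members and 0.0816% of genes were called. In neither comparison did a member have an unadjusted p under 0.05, against 13.2% of genes in control and 6.75% in Western-diet pups, and DESeq2 and limma-voom called 0 members in both.

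All 4 adult globins differed between batches in the test over all 3, but 0 were called with batch 1 or batch 3 left out. With the diet and sex groups held in the model, edgeR's test of batch gave adjusted p-values of 0.0103 to 0.0156 and called 4 of 4 members, against 24.2% of all genes. The median of Hbb-bs was 1230 CPM in batch 1, 850 CPM in batch 2 and 538 CPM in batch 3, over 8 libraries each. Hba-a1 had medians of 896, 589 and 445 CPM in the same order. Not every group followed that order: in Western-diet females the mean of Hbb-bs was 440 CPM in batch 2 and 623 CPM in batch 3. Each batch held every group equally, so the batch means are not a diet difference.

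Within batches, the males kept 1 direction. In every batch, both Western-diet males lay below both control males for each of the 4 genes, 12 of 12 combinations of gene and batch. Such an order in all 3 batches held for 4 of 4 members and for 2.07% of all genes. The 4 genes rose and fell together over the libraries, so neither the 12 combinations nor the 4 members are independent observations. The within-batch difference in mean log2 CPM ran from -1.62 to -1.09. For Hbb-bs, the control pair of males held 2615 and 3269 CPM in batch 1 against 1037 and 1297 CPM with the Western diet. In batch 3 the same comparison was 851 and 900 CPM against 263 and 561 CPM.

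Female pups did not keep 1 direction. In batches 1 and 2 the difference in mean log2 CPM was -1.53 to -0.79 over the 4 genes. In batch 3 it was 1.04 for Hbb-bs, 0.59 for Hbb-bt, 0.20 for Hba-a1 and 1.11 for Hba-a2, higher with the Western diet. There, the 2 control females had 202 and 442 CPM of Hbb-bs and the 2 Western-diet females 515 and 730 CPM. The order seen in males in all 3 batches held for 0 of 4 members in females, against 2.92% of all genes. Without those 2 control females, the fitted log2 fold changes in females were -0.98 for Hbb-bs, -0.999 for Hbb-bt, -1.22 for Hba-a1 and -1.04 for Hba-a2. Still 0 of 4 members were called, with edgeR adjusted p-values of 0.164 to 0.422. The male minus female difference of Hbb-bs was then -0.39 on the log2 scale.

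**Figure D2:**
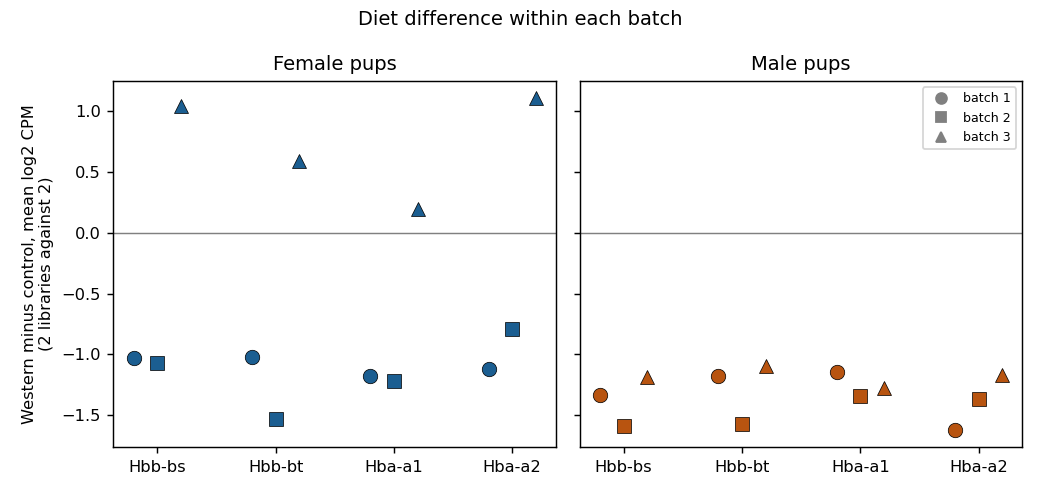
Western-diet minus control difference in mean log2 CPM of each adult globin within each batch (2 libraries against 2), for female pups on the left and male pups on the right, with 0 drawn as a line. All 12 male points lie between -1.62 and -1.09, whereas the 4 female points of batch 3 (triangles) lie above 0.

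The make-up of the adult globin counts moved less than their amount. Hbb-bs held 79.5 ± 4.45% (SD, n = 6) of the beta pair in female control and 82.8 ± 2.22% in female Western-diet pups. In males its share was 81.8 ± 1.13% and 80.8 ± 2.08%. Hba-a1 held 77.5 ± 5.78% of the alpha pair in female control and 71.8 ± 2.26% in female Western-diet pups, 5.64 percentage points less, and 74.6 ± 5.08% and 76.4 ± 4.32% in males. The alpha pair held 47.7 ± 2.87% of all adult globin counts in female control, 44.1 ± 3.66% in female Western-diet, 44.2 ± 4.46% in male control and 45.3 ± 3.71% in male Western-diet pups.

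None of these 6 comparisons of shares passed. The smallest p, from a two-sided exact permutation test within batches, was 0.0463 for the Hba-a1 share in females, and the adjusted p-values over the 6 comparisons were 0.241 to 0.472. With 216 arrangements the smallest p this test allows is 0.00926. The female difference in the Hba-a1 share was -0.83 percentage points in batch 1, -5.44 in batch 2 and -10.6 in batch 3. With counts summed over each group, it was -1.37 points, against -5.64 for the mean of libraries. For the Hbb-bs share in females the summed counts gave 0.22 points, against 3.37 for the mean of libraries. For the alpha share in females they gave -2.5 points, against -3.63. The differences from summed counts were not tested. Female control libraries 3, 5 and 6, which had the lowest globin levels of their group, had the highest Hba-a1 shares of it at 80.6, 83.4 and 83.6%. They also had its lowest Hbb-bs shares, at 75.2, 75.1 and 76.0%. Library 6 of the male Western-diet group, the lowest of its own group for all 4 genes, likewise had an Hba-a1 share of 83.8% and an Hbb-bs share of 77.2%. Library 3 of the female Western-diet group, at 220 CPM of Hbb-bs, did not share this make-up, with 71.9% and 86.7%.

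**Figure D3:**
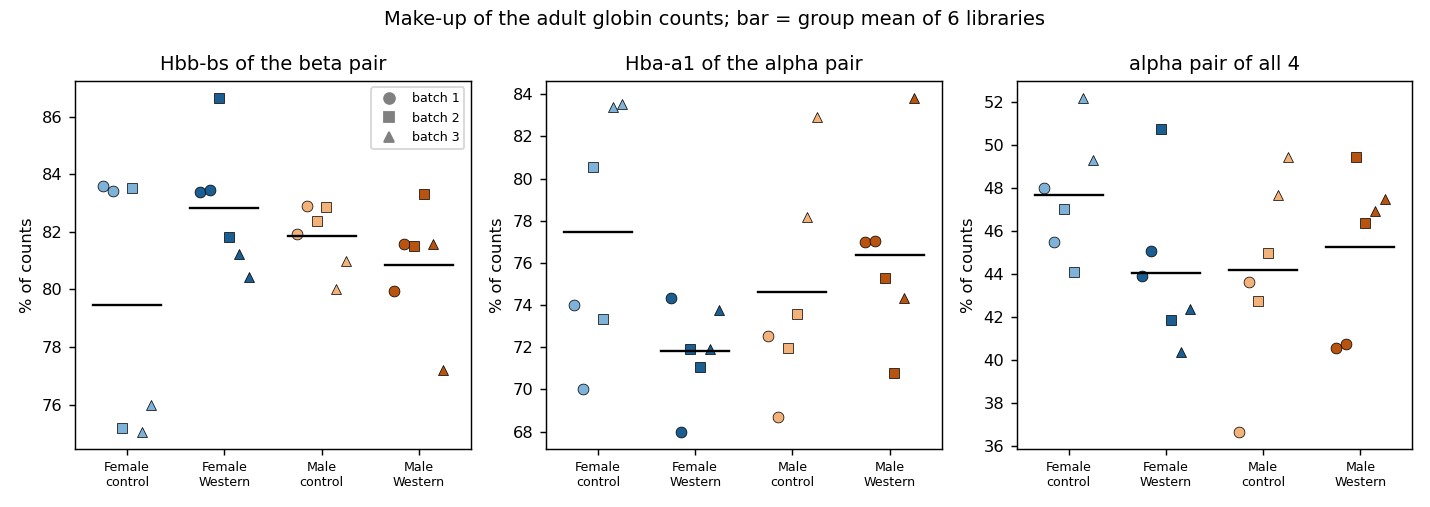
Share of counts held by Hbb-bs within the beta pair, by Hba-a1 within the alpha pair and by the alpha pair among all 4 adult globins, in percent for each library, with a bar at the group mean of 6 libraries and marker shape for batch. The axes do not start at 0; 3 female control libraries stand at 75.1 to 76.0% in the first panel and at 80.6 to 83.6% in the second.

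The embryonic beta-like globins were close to absent. Hbb-y, made in the first red cells of the yolk sac, had 65 counts over all 24 libraries, 0 to 9 a library, with a count in 16 of them. Hbb-bh1, another early beta-like chain, had 20 counts in total, 0 to 5 a library, with a count in 10. Male control pups held 30 of the Hbb-y counts and 12 of the Hbb-bh1 counts, against 4 and 3 in female control, 12 and 1 in female Western-diet and 19 and 4 in male Western-diet pups. Both genes together made up 0.00558% of the beta-like globin counts (exact 95% interval 0.00446 to 0.00690%, counting error only). Their share in female control pups was 0.00168% (0.000676 to 0.00347%), in female Western-diet 0.00578% (0.00308 to 0.00988%), in male control 0.00675% (0.00486 to 0.00912%) and in male Western-diet pups 0.00888% (0.00563 to 0.0133%). Both genes were removed by the filter on low counts, and no difference between groups was tested for them.

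The other globin rows were also low. Hba-x, the embryonic alpha-like zeta chain, had 77 counts in total, or 0.00641% of alpha-like counts (exact 95% interval 0.00506 to 0.00801%). Hbb-bh2 had 6 counts and Hbq1a, a theta-type globin, 206. Hbq1b, the other theta-type gene, had 4063 counts and a count in every library, with medians of 3.45 CPM in female control, 1.96 in female Western-diet, 6.18 in male control and 2.90 in male Western-diet pups. Its order over the groups was that of the adult genes, at a level far below theirs. The pseudogene Hba-ps4 had 276 counts, and Hbb-bh0, Hbb-bh3 and Hba-ps3 had 0, which allows at most 0.00283 CPM over the 24 libraries.

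Across the 24 libraries the 4 adult globins rose and fell as 1 block. With Hbb-bs, the Pearson correlation of log2 CPM was 0.98 for each of Hba-a2, Hbb-bt and Hba-a1. These correlations, like those that follow, describe points that share libraries, depth and group structure. After group and batch means were removed they were 0.96, 0.97 and 0.98.

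Outside the globin rows, the gene most like Hbb-bs of 14240 ranked was Alas2, the erythroid enzyme for the first step of heme synthesis. Its correlation was 0.95 (Spearman 0.95, and 0.96 without the 2 libraries farthest from the median of Hbb-bs), and 0.90 after group and batch means were removed, first by both measures. Next by log2 CPM were Bpgm, the red cell enzyme that makes bisphosphoglycerate, at 0.92, Slfn14 at 0.91, Tent5c at 0.87, Slamf9 and Rsad2 at 0.85, and Postn and Trac at 0.82. By the residuals, Alas2 was followed by Ighv1-77 at 0.85, Nsg1 at 0.83, Slfn14 at 0.82, Clnk at 0.80, Ccdc40 and Bpgm at 0.79 and Pctp at 0.78. Only Alas2, Bpgm and Slfn14 stood in both groups of 8.

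The other red cell genes chosen for reference followed the globins less closely. The correlation of log2 CPM with Hbb-bs over 24 libraries was 0.45 for Slc4a1, the band 3 anion exchanger, and 0.09 for Car1, carbonic anhydrase 1. It was -0.28 for Gata1, -0.33 for Klf1 and -0.32 for the erythropoietin receptor gene Epor. After group and batch means were removed these last genes stood at -0.61, -0.60 and -0.61, so within a group the libraries richer in globin had less of them. For Ly6a the same value was 0.68, and for Kit -0.44. Female control library 5 shows the contrast, with the lowest Hbb-bs of all and one of the 3 highest levels of Car1.

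**Figure D4:**
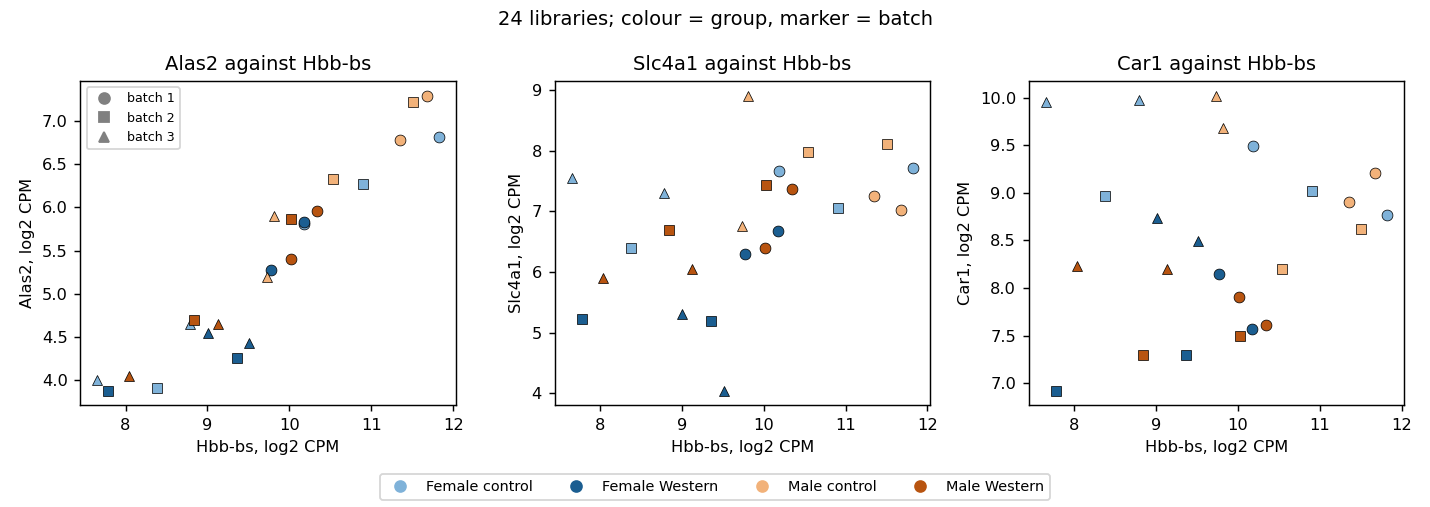
Level of Alas2 (left), Slc4a1 (middle) and Car1 (right) against Hbb-bs, each as log2 CPM, in 24 libraries coloured by group with marker shape for batch. Alas2 follows Hbb-bs closely (Pearson 0.95), Slc4a1 loosely (0.45) and Car1 not visibly (0.09).

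The genes most like Hbb-bs were picked over these same 24 libraries, group differences included, so their diet and sex values are a description and no added support. The lowest, median and highest levels of Alas2 were 14.99, 40.5 and 112 CPM in female control and 14.7, 22.4 and 56.7 CPM in female Western-diet pups. In males they were 36.7, 95.3 and 156 CPM with control dams and 16.5, 34.1 and 62.2 CPM with Western-diet dams. The log2 fold change was -0.65 ± 0.34 in females (edgeR adjusted p = 0.281) and -1.35 ± 0.34 in males (0.219). Averaged over sexes Alas2 fell by 0.9996 ± 0.24 on the log2 scale (0.0157). Bpgm fell by 0.53 ± 0.15 (0.0350) and Tent5c by 0.75 ± 0.16 (0.00423) in that average, while Slfn14 missed the threshold, with -0.65 ± 0.19 (0.0503).

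Most genes of the rest of the heme pathway were called lower with the Western diet in females. Of 16 tested genes for heme synthesis and its iron supply, 13 were called lower in females by edgeR (3.22% of all genes were). In males 0 were (0.0102%) and in the average 14 (3.51%). The median log2 fold changes were -0.90, -0.50 and -0.71. Over all tested genes the medians were 0.03, 0.02 and 0.02. The gene lists here and below were chosen with earlier results of these data known. Their counts called are therefore a description and no added support. Among those with the smallest p in females were Alad, an early pathway enzyme, which fell by 0.91 on the log2 scale (edgeR adjusted p = 0.00046), Steap3, an iron reductase, by 0.98 (0.000871), and Ppox by 0.77 (0.00152). All 16 were on the lower side in both sexes. Without the 2 control females of batch 3, 5 of the 16 were called lower in females, with a median of -0.75.

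Genes of the red cell membrane and of early erythroid progenitors were also mostly called in females, against the same shares of all genes (3.22% lower in females, 0.0102% in males and 3.51% in the average). Of 18 tested membrane genes, 16 were called lower in females, 0 in males and 18 in the average, with medians of -1.36, -0.78 and -1.07. All 18 were on the lower side in both sexes. Tspo2 fell in females by 1.33 on the log2 scale (edgeR adjusted p = 8.77e-05), Ermap, an erythroid membrane protein, fell by 1.39 (0.000156), and Rhag, the Rh-associated glycoprotein, fell by 1.62 (0.00019). Of 12 early progenitor genes, 11 were called lower in females, 1 in males and 11 in the average, with medians of -1.22, -0.59 and -0.91. All 12 were on the lower side in both sexes. Car1 was the one called in males, where it fell by 1.32 on the log2 scale (edgeR adjusted p = 7.24e-05), and in females it fell by 1.499 (7.33e-06). Tspan33, Sphk1 and Epor were also among those called lower in females. Rhd stands in both of these lists. Without the 2 control females of batch 3, 12 of 18 membrane genes and 9 of 12 early genes were called lower in females, with medians of -1.24 and -1.14.

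The fitted male minus female differences had opposite signs for these 2 lists and for the adult globins. The male minus female difference was above 0 for 18 of 18 membrane genes and 12 of 12 early genes, with medians of 0.56 and 0.55. It was below 0 for 4 of 4 adult globins, which rose and fell together over the libraries and are not independent observations. The genes of the 2 lists share the same libraries, and Rhd is in both, so they are not independent observations either. For Hba-a1 the sign turned with batch 3 left out (0.12) and in batch 1 or batch 2 alone (0.19 and 0.13), and for Hbb-bt in batch 1 alone (0.0399). Of all tested genes, 52.4% lay below 0. None of these differences passed, with edgeR adjusted p-values of 0.589 and more for the list genes and 0.704 and more for the globins.

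**Figure D5:**
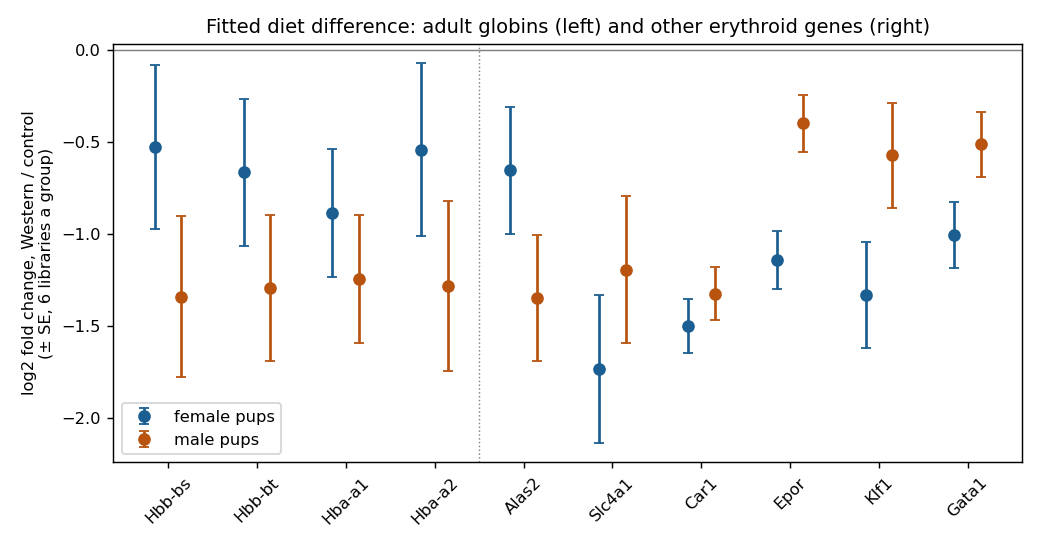
Fitted log2 fold change, Western diet against control, with its SE, in female and male pups (6 libraries a group) for the 4 adult globins, left of the dotted line, and 6 other erythroid genes. The globins and Alas2 have the larger size in males, from -1.35 to -1.24, and the other genes shown have it in females.

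Genes that handle hemoglobin in the red cell were mostly measured lower, 13 of 15 in each sex and in the average. Of the 15, 7 were called lower in females (against 3.22% of all genes), 0 in males (0.0102%) and 9 in the average (3.51%). The medians were -0.24, -0.42 and -0.44. Without the 2 control females of batch 3, 4 were called lower in females, with a median of -0.43. Blvrb, a biliverdin reductase, fell in females by 1.10 (edgeR adjusted p = 0.000275), and Hebp1, a heme-binding protein, by 1.15 (0.000567). Car2, carbonic anhydrase 2, fell by 1.02 (0.000825) and Trim10 by 1.34 (0.000887). The heme-regulated kinase gene Eif2ak1, which restrains globin translation when heme is short, was 1 of the 7.

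Regulators of globin genes mostly did not pass. Of 19 tested, 3 were called lower and 1 higher in females (3.22 and 2.2% of all genes were). In males 0 were called (0.0102 and 0%), and in the average 3 lower and 1 higher (3.51 and 2.19%). Their medians were -0.12, 0.04 and -0.09. Without the 2 control females of batch 3, 1 was called lower and 0 higher in females, and 3 lower and 0 higher in the average. Those called lower in females were Sox6, a repressor of embryonic beta-like globin, by 1.05 on the log2 scale (edgeR adjusted p = 0.00131), Gata1, which fell by 1.004 (0.00149), and Klf1 by 1.33 (0.00839). Myb, a progenitor factor, rose by 0.52 (0.0261). In males the values for these genes were -0.74, -0.51, -0.57 and 0.23, with adjusted p-values of 0.203 to 0.675. Bcl11a, the repressor best known for silencing fetal-type globin, had -0.40 ± 0.14 in females and -0.04 ± 0.14 in males, and did not pass in either.

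The marker lists of the cells that could stand beside LSK cells in the sort moved as follows, and their part in the globin differences was not tested. The summed level of the 11 erythroid markers had medians of 4240 CPM in female control, 2145 in female Western-diet, 5911 in male control and 2510 in male Western-diet pups. The 4 globins held a median of 48.4, 66.9, 78.6 and 69.9% of that sum in the same order, and from 16.5 to 85.9% of it in single female control libraries. The other 7 erythroid markers summed to medians of 1619, 763, 1365 and 800.2 CPM. The 12 markers of erythroblastic island macrophages, which nurse red cell precursors, all had counts in every library and medians of 769, 872, 694 and 523 CPM in the same order, with 0 of 12 called by edgeR in either sex. The 8 neutrophil markers summed to medians of 42.1, 54.3, 46.5 and 57.7 CPM, the 7 megakaryocyte and platelet markers to 270, 260, 316 and 247 CPM. The 9 B and plasma cell markers summed to medians of 739, 1118, 978 and 1004 CPM and the 9 T and NK cell markers to 212, 323, 263 and 357 CPM. No marker of these 7 lists was at 0 in all libraries of a group. By edgeR, 6 of 11 erythroid markers were called lower in females, against 3.22% of all genes, and 1 in males, against 0.0102%. In females 3 of 9 B and plasma cell markers, 1 of 9 T and NK cell markers and 2 of 10 LSK markers were called higher, against 2.2% of all genes. In males 0 markers of these 3 lists were called.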

How the data were processed

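RNA of sorted LSK cells was sequenced in 24 libraries, and the members and gene lists were chosen with earlier results of these data known. The deposited values are whole-number counts of reads per Ensembl gene, 1 file a library. FastQC, cutadapt, STAR, HTSeq and DESeq2 and the build GRCm39 are named per the submitters' processing notes, with neither versions nor the strand setting given in the sources used here. The closing lines of each file, which name no gene, stayed out of library sizes. Symbols were matched for 52081 of 55414 identifiers. Lengths and transcripts came from GENCODE M21 and promoters from RefSeq, both on GRCm38, so coordinates are not those of the counts.

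Counts were fitted with edgeR 4.0.16 in R 4.3.3: TMM factors, filterByExpr, robust quasi-likelihood, the 4 groups plus batch, all 24 libraries, Benjamini-Hochberg adjustment over 19616 genes, called under 0.05. Adjusted p-values in the text are edgeR's unless another tool is named. CPM values are counts scaled to the TMM-corrected library size. Correlations used log2 CPM with a prior count of 2, and within-batch differences log2 of CPM with nothing added. Globin shares were compared by exact permutation within batches. DESeq2 1.42.0 and limma 3.58.1 were alternatives. The genes named outside the members are those most like Hbb-bs (8 by each measure), up to 4 called genes with the smallest p of each list and fixed reference genes, of which some are not reported here. Eif2ak1 and Rhd were named after their values were seen. The edgeR step was tested on simulated counts. The depth was 38057263 to 51581968 counts in genes.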

Additional observations from a re-analysis of the deposited data

Results flagged for a closer look

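Of 28 groups of 6 libraries checked for a single library far from its group, 4 adult globins and 3 globin shares in 4 groups each, 1 was flagged. The checks were not corrected for their number, so 1 flag among 28 can arise by chance. They also share libraries and genes that rose and fell together. In female Western-diet pups, library 3 had 33.95 CPM of Hbb-bt. In log2 CPM (0.1 added), its gap to the next library was 0.681 of the group's range. That is past Dixon's 95% critical value for 6 libraries. Globin levels were checked as log2 CPM only, so this says nothing of the gap in CPM. The other 5 libraries of that group reached 231 CPM. Library 3 also had the group's lowest Hbb-bs, at 220 CPM, and its highest Hbb-bs share of the beta pair, at 86.7%, but neither of those gaps was past the critical value.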

How the results depend on the processing

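In males, the log2 fold change of every adult globin stayed below 0 under all alternatives run, from -1.65 to -0.97. In females it was above 0 only in batch 3 alone, at 0.93 for Hbb-bs, 0.49 for Hbb-bt, 0.11 for Hba-a1 and 1.04 for Hba-a2. Without a filter on low counts, edgeR called 4 members in females, 4 in males, 4 in the average, 3 for the male minus female difference and 4 for sex in control pups. Calls rose over all genes too, to 2023, 380, 1693, 572 and 1296 in the same order. The fit reported called 1064, 2, 1118, 0 and 22 genes. In the unfiltered fit the SE of Hbb-bs in males was 0.116 against 0.437 with the filter, and the cause was not tested. In males DESeq2 called 1 and limma-voom 4, and in the average limma-voom called 4. The average called 0 with no batch term, with batch 1 left out, with batch 3 left out and in each batch alone, and 1 with batch 2 left out. With 1 library left out it called 1 to 3 members. Hbb-bt lost its call without female control 2, 4 or 6, female Western-diet 1, 2 or 4, male control 1, 3, 5 or 6, or male Western-diet 1, 2, 3, 5 or 6 (adjusted p 0.0533 to 0.0744), and Hbb-bs gained one without female control 3 (adjusted p 0.0485).

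Averaged over sexes, Hba-a2 was at 0.0355 in batch 3 alone. The male minus female difference of Hba-a1 was 0.12 with batch 3 left out, 0.19 in batch 1 alone and 0.13 in batch 2 alone, and that of Hbb-bt 0.0399 in batch 1 alone. For sex in control pups, Hba-a1 was at -0.0582 and Hba-a2 at -0.0239 in batch 1 alone. For sex in Western-diet pups, near 0 throughout, Hbb-bs was at -0.0550 with batch 1 left out, -0.30 with batch 2 left out, -0.61 in batch 3 alone and -0.0037 with the replicate block. Hbb-bt was at -0.13 with batch 2 left out and -0.54 in batch 3 alone, and Hba-a1 at -0.0419 and -0.16. Hba-a2 was at 0.0282 with no batch term, 0.0186 in the 2 groups alone, 0.0549 with batch 1 left out, 0.31 with batch 3 left out and 0.89 in batch 2 alone. With 1 library left out, the values ran from -0.22 to 0.28 for Hbb-bs, from -0.11 to 0.38 for Hbb-bt and from -0.32 to 0.22 for Hba-a2. The batch test called 0 members with batch 1 or batch 3 left out. The alpha share in males ran from -0.43 to 2.13 percentage points with 1 library left out.

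Genes called in females numbered 1064 in the fit reported, 1805 by DESeq2, 2023 unfiltered, 404 with no batch term, 358 in the 2 groups alone, 1839, 297 and 146 with batch 1, 2 or 3 left out, 154 without both female controls of batch 3, and 0, 22 and 2719 in batches 1, 2 and 3 alone. In males they numbered 2, then 99 by DESeq2, 132 by limma-voom, 380 unfiltered, 10 under the stricter filter and 0 or 1 with no batch term, the replicate block, the 2 groups alone or 1 batch left out or alone. In the average they numbered 1118, then 1784 by DESeq2, 1693 unfiltered, 466 with no batch term, 556 and 143 with batch 2 or 3 left out, 447 without both female controls of batch 3, and 0, 1 and 1781 in the batches alone. Leaving out 1 library gave 504 to 1386, 1 to 13 and 716 to 1464.

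Whether replicate numbers pair the libraries was not settled. After group and batch means were removed, same-numbered libraries correlated at -0.07 to 0.18. With 2 libraries per group and batch, their deviations mirror each other, so this check cannot exclude pairing. Of 12 Western-diet libraries, 5 correlated best with the control of their own number, and the number expected without pairing was not computed. With a replicate block, Hba-a1 stood at -1.07 (adjusted p = 0.0171) and Hbb-bt at -1.02 (0.0497) in the average, and the members called were 0, 0, 2 and 0 in females, males, the average and the difference. The fit on the 2 groups alone was not run for the average or the difference, nor coding length from a protein table. The embryonic globins, with 0 to 9 counts a library, were removed by the filter on low counts and were not tested.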
